A study of Oryctolagus cuniculus with 27 samples.

Results

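From the gene table of the rabbit aortic valve the authors took out 346 of 31346 listed genes as myocardial, meaning genes they found in heart muscle and valve and missed in the ascending aorta. Of these, 176 carry a gene symbol and are described here, and the other 170 carry locus or accession names only. They were found as the genes listed in the unfiltered valve table and missing from the filtered one, so they were chosen by their levels across the 3 tissues, which are given below without a test. The removed genes made up 1.10% of the listed genes and 2.17% of the 15973 genes that passed a filter on low counts in valve, while the design text gives 2.22% without naming the denominator. All other rows hold identical values in both valve tables.

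The study sequenced RNA from male wild-type New Zealand rabbits fed normal chow, or chow enriched with cholesterol (1%) plus ergocalciferol, which is vitamin D2 (3500 IU per kg per day). There were 16 libraries of 1 aortic valve cusp each, freed from most of the fat around it: 4 from controls and 4 each after 2, 4 and 7 weeks of the diet. The ascending aorta gave 3 control and 2 diet libraries and the left ventricular myocardium 3 and 3, with no duration in the labels. The design text pools controls of 2 and 4 weeks, whereas the titles of the 4 control valves name 7 weeks for 3 and 2 weeks for 1, so control age is uncertain and age and diet cannot be told apart. By the animal names, 5 animals gave both a valve and a myocardium library: control valves 2 and 3 and 7-week valves 1, 2 and 4. The myocardium of these 3 diet animals is the whole myocardium diet group. A further animal, 2-week valve 1, also gave diet aorta 1.

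The aortic cusp is a thin sheet of interstitial cells and matrix covered by endothelium, and its base joins the aortic root, where ventricular muscle lies close by. Heart muscle cells devote much of their RNA to sarcomere, calcium-handling and energy genes, so heart muscle is recognised in RNA data by a small set of very abundant transcripts. Many of the removed genes are better known from other organs, among them epithelia, brain, liver and testis.

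Libraries held 8.46 to 19.999 M counts in valve, 11.5 to 16.1 M in aorta and 13.95 to 17.3 M in myocardium. Heart muscle transcripts were summed over 21 genes of sarcomere, calcium handling and energy (the muscle score, from MYH7 and TNNI3 to RYR2 and CKM), none of which the authors removed. All 21 passed the count filter in aorta as well as in valve. The score took 11.4% ± 1.59 of the counts in myocardium (SD, n = 6), 1.73% ± 1.49 in valve (n = 16) and 0.236% ± 0.0226 in aorta (n = 5). Within the valve it was 2.66% ± 1.54 in controls, 0.433% ± 0.173 at 2 weeks, 1.2002% ± 0.676 at 4 weeks and 2.65% ± 1.83 at 7 weeks (n = 4 each). The 4 two-week valves, at 0.243% to 0.659%, all lay below the 4 control valves, at 1.06% to 4.74%.

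The 176 removed genes together were rare transcripts. They took 0.0252% of the counts in valve, 0.00489% in aorta and 0.0897% in myocardium. CPM, the level used throughout, is a count relative to the total of its library, without correction for transcript length. Over the 176 genes the mean level in valve ran from 0.370 to 6.79 CPM with a median of 0.973, in aorta from 0 to 2.64 with a median of 0.211, and in myocardium from 0.518 to 36.95 with a median of 2.42. In valve 93 genes averaged under 1 CPM and 4 averaged at least 5 CPM, and in myocardium 24 averaged at least 10 CPM. In aorta 172 averaged under 1 CPM, and SMCO1, CPN2 and MS4A15 had no count in any of the 5 libraries.

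All 176 passed the filter in valve and in myocardium and 19 passed it in aorta. The authors' own limit for presence is not given in the sources used here. Under the filter used here, 429 genes with a symbol passed in both heart tissues and failed in aorta. They comprised 157 of the removed genes and 272 that were kept in the authors' filtered table.

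For 151 of the 176 the mean was higher in myocardium than in valve, by at least 2-fold for 103 and at least 5-fold for 33. For 33 genes every myocardium library lay above every valve library. The remaining 25 had the higher mean in valve. In bulk tissue, fewer cells of a type and less RNA per cell cannot be told apart, here or in any comparison below.

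**Figure D1:**
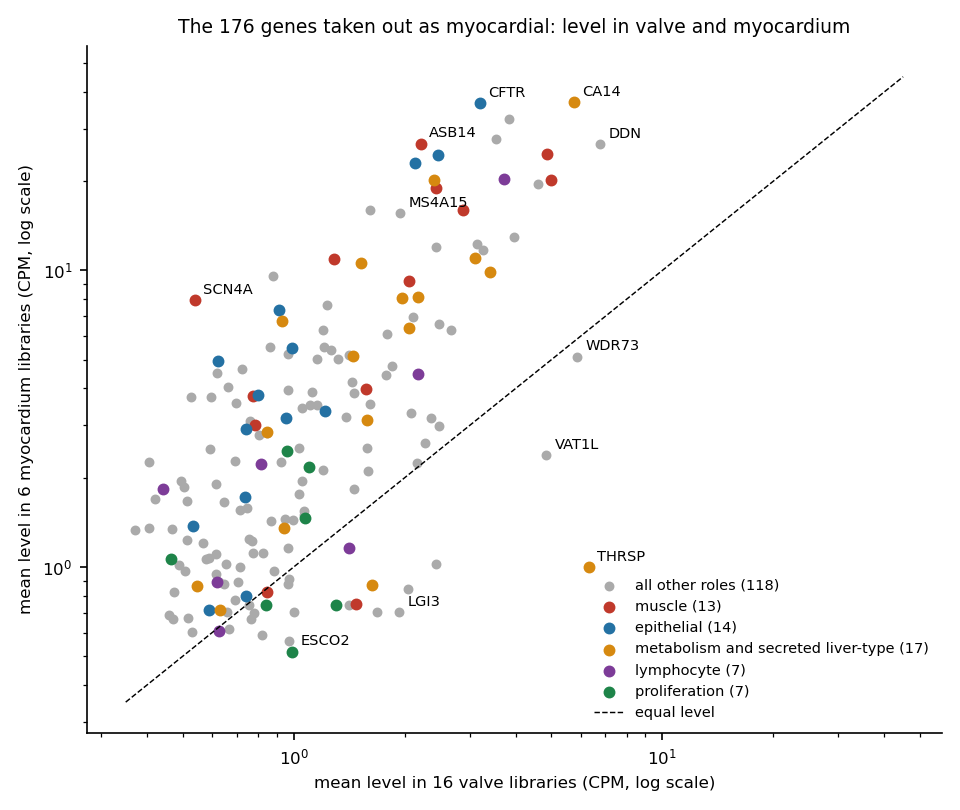
Mean level of each of the 176 removed genes in the 16 valve libraries (x axis, CPM, log scale) against the 6 myocardium libraries (y axis, CPM, log scale), coloured by broad role. The 151 points above the dashed line of equal level include 11 of 13 muscle genes and all 14 epithelial genes, and THRSP, VAT1L and WDR73 are the 3 farthest right among the 25 below it.

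Sorted by what the genes are known for, 13 are muscle genes. Their median level was 1.57 CPM in valve, 0.145 in aorta and 9.202 in myocardium. SCN4A, the skeletal muscle sodium channel, had 7.92 ± 1.93 CPM in myocardium (SD, n = 6), 0.540 ± 0.545 in valve (n = 16) and 0.0603 ± 0.0842 in aorta (n = 5), a 14.7-fold step from valve to myocardium. The 6 myocardium libraries, at 5.64 to 10.4 CPM, all exceeded the highest valve library at 2.27. ASB14, an ankyrin repeat and SOCS box protein, averaged 26.8 ± 8.55 CPM in myocardium, 2.21 ± 2.10 in valve and 0.1099 ± 0.0823 in aorta.

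Other muscle genes among the removed were RAPSN, which anchors acetylcholine receptors at the nerve-muscle junction, NEB, the thin filament protein nebulin, and KCNE1, a subunit of the slow delayed rectifier potassium channel. RAPSN averaged 16.05 ± 4.57 CPM in myocardium and 2.88 ± 2.47 in valve. NEB averaged 18.9 ± 16.9 and 2.43 ± 1.79, and 2 of its 6 myocardium libraries lay below the highest valve library. None of the 176 was on the cardiomyocyte, atrial muscle or conduction marker lists.

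The 14 epithelial genes, members of junctions and apical surfaces, were all higher on average in myocardium, with a median step of 4.34-fold. CFTR, a chloride channel of epithelia that is also known from ventricular myocytes, was at 30.3, 44.4 and 31.4 CPM in control myocardium and 29.4, 29.6 and 55.2 in diet myocardium. All 16 valve libraries lay below these, at 0.232 to 13.99 CPM, and the 5 aortas lay at 0.0639 to 0.567 CPM. ITGB6, an epithelial integrin subunit, averaged 23.0 ± 5.98 CPM in myocardium, 2.13 ± 2.10 in valve and 0.0956 ± 0.0641 in aorta. The desmosomal cadherin DSC3 and the squamous-cell protein CRNN averaged 4.96 ± 1.74 and 5.48 ± 2.36 CPM in myocardium, against 0.624 ± 0.581 and 0.986 ± 1.03 in valve.

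Another group of 17 holds metabolic enzymes and secreted proteins, with a median step of 3.36-fold to myocardium. It was assigned by name, so genes also known from muscle may be among them. This group includes CA14, a membrane-bound carbonic anhydrase, at 36.95 ± 7.18 CPM in myocardium, 5.75 ± 4.56 in valve and 0.315 ± 0.06398 in aorta. PLAAT1, a phospholipase and acyltransferase, averaged 8.16 ± 2.43, 2.17 ± 1.79 and 0.0591 ± 0.0346 CPM. NR0B2, the orphan receptor SHP that represses bile acid synthesis, averaged 6.397 ± 2.07, 2.05 ± 2.36 and 0.170 ± 0.189 CPM.

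The 28 genes best known from neurons had a median step of 1.69-fold and the 7 proliferation genes of 1.37-fold, both below the median of 2.55-fold over the 176 genes. ESCO2, which establishes sister chromatid cohesion, was lower on average in myocardium (0.518 ± 0.258 CPM) than in valve (0.990 ± 0.747). The smaller groups were 7 lymphocyte genes, 8 of germ cell and cilium, 16 receptors, channels and secreted signals, and 3 of endothelium, blood and vessel wall. A further 63 fitted no group.

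**Figure D2:**
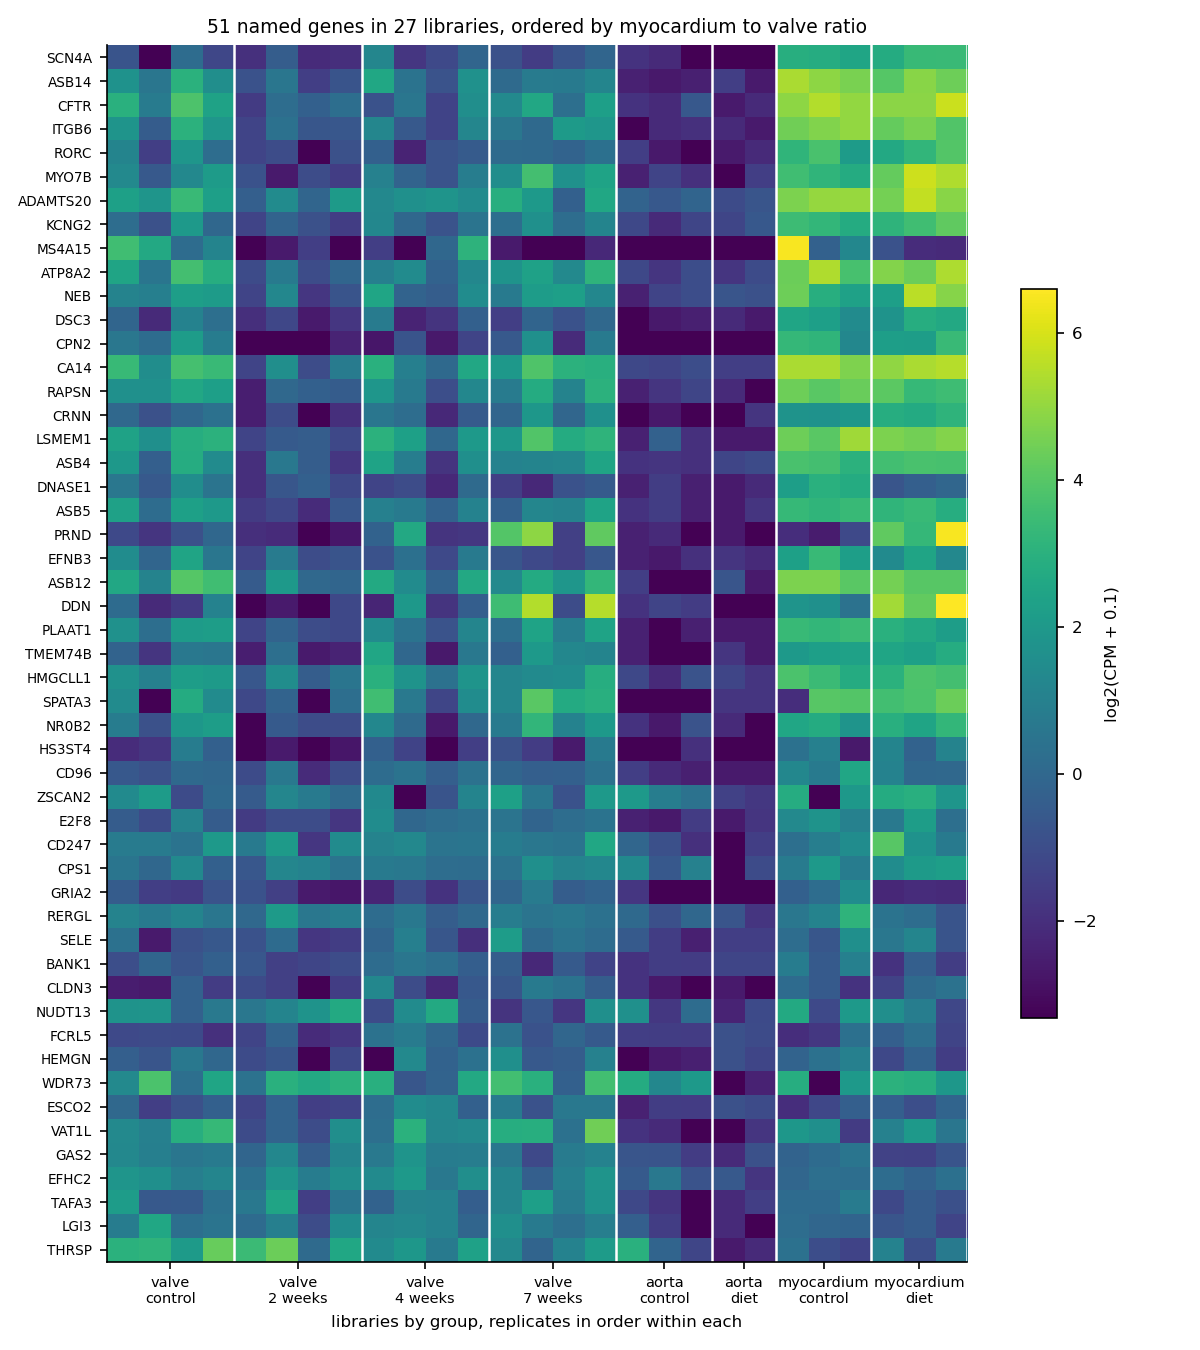
Level of 51 named removed genes, as log2(CPM + 0.1) by colour, in the 27 libraries, with groups in columns and genes ordered from the highest to the lowest ratio of myocardium to valve. Muscle and epithelial genes near the top are bright in all 6 myocardium libraries and dark in all 5 aortas, and the two-week valves are darker than the control valves for most of them.

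Each gene's mean CPM was also divided by the mean score of the tissue, and the value in valve by that in myocardium. This quotient, which is 1 for a gene that keeps its proportion to the score, had a median of 2.57. It was above 2 for 105 genes, between 0.5 and 2 for 70, and below 0.5 for SCN4A alone, at 0.447. Muscle genes had a median quotient of 1.35 and epithelial genes 1.52, against 3.196 for lymphocyte, 3.88 for neural and 4.80 for proliferation genes. The largest quotients belonged to THRSP (41.6), LGI3 (17.9), TAFA3 (15.8), GAS2 (15.7) and EFHC2 (15.6). These valve means pool diet groups that differ in score. Over control libraries alone, a comparison added after seeing the data, the median was 1.85 and 75 genes were above 2. THRSP then had 66.8, LGI3 11.5, EFHC2 10.7, GAS2 7.22 and TAFA3 5.84, of which the first 3 stayed among the 5 largest.

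THRSP, the lipogenic Spot 14 protein of fat and liver, had the lowest ratio of myocardium to valve of the 176 genes, 0.157. In control valves it was at 8.05, 8.77, 4.15 and 19.3 CPM, and in control aortas at 7.73, 0.807 and 0.324. Control myocardium held 1.22, 0.403 and 0.294 CPM. The valve mean was 6.33 ± 6.09 CPM against 0.996 ± 0.729 in myocardium, and 1 control aorta exceeded every myocardium library.

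VAT1L averaged 4.84 ± 5.51 CPM in valve, 2.38 ± 1.46 in myocardium and 0.0978 ± 0.0926 in aorta. LGI3, a secreted protein of the LGI family, averaged 1.93 ± 1.28, 0.706 ± 0.273 and 0.214 ± 0.288 CPM. For GAS2, a cytoskeletal protein, the means were 1.68 ± 0.728, 0.703 ± 0.427 and 0.367 ± 0.173, and for EFHC2, a protein of cilia, 2.43 ± 0.948, 1.02 ± 0.165 and 0.670 ± 0.487. All 4 had a lower mean in myocardium than in valve.

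Marker lists of 21 cell types, 628 genes in all of which 550 are in the table, held 13 of the 176 genes. The skeletal muscle list held NEB and ASB5 (2 of its 27 genes in the table), the T lymphocyte and NK cell list CD247 and CD96 (2 of 38), the B lymphocyte list BANK1 and FCRL5 (2 of 28) and the proliferating cell list E2F8 and ESCO2 (2 of 29). SELE (E-selectin of activated endothelium), THRSP (adipocyte), HEMGN (erythroid), RERGL (smooth muscle) and CLDN3 (epithelial) were the only removed genes of their lists.

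SELE averaged 0.948 ± 1.03 CPM in valve, 0.290 ± 0.193 in aorta and 1.45 ± 0.963 in myocardium. HEMGN averaged 0.963 ± 0.843, 0.182 ± 0.192 and 0.875 ± 0.602 CPM. CD247, the zeta chain of the T cell receptor complex, averaged 2.17 ± 1.44, 0.344 ± 0.333 and 4.46 ± 5.84 CPM, with a single diet myocardium at 16.3 and the other 5 at 1.15 to 3.25. For each of these 3 the valve and myocardium libraries overlapped.

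Whether a removed gene followed heart muscle among valves of 1 group was tested by its slope on the muscle score, with group in the model. Of the 176 genes 29 rose with the score and 0 fell, against a background of 4.98% of all 15973 genes tested that rose and 0.764% that fell (edgeR quasi-likelihood F test, adjusted p under 0.05). At an unadjusted p under 0.05 there were 77 of the 176, or 43.8%, against a background of 18.2%. The slope was above 0 for 159 genes (90.3%, against 44.2% of all genes), with a median of 0.48 log2 units per doubling of the score against -0.02. The genes were chosen as found in valve and myocardium and missed in aorta, so part of this lean is built into the choice. The shares over all genes do not correct for that. The 21 score genes themselves, which define the score, had a median of 1.15.

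The smallest p belonged to PLAAT1, whose slope was 1.07 ± 0.13 log2 units per doubling (SE, adjusted p = 0.000238, edgeR quasi-likelihood). PLAAT1 was at 3.13, 1.09, 4.22 and 4.47 CPM in control valves 1 to 4, at 0.310, 0.796, 0.391 and 0.350 at 2 weeks, at 2.68, 1.28, 0.475 and 2.18 at 4 weeks, and at 1.11, 5.32, 1.72 and 5.27 at 7 weeks. In each of the 4 groups the library with the lowest score also had the lowest level of PLAAT1.

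ASB12 had a slope of 1.24 ± 0.16 (adjusted p = 0.000263) and RAPSN of 1.07 ± 0.16 (adjusted p = 0.000802), both by edgeR quasi-likelihood. Control valves 1 to 4 had 6.05, 2.05, 15.5 and 11.5 CPM of ASB12 and 3.06, 3.07, 6.07 and 4.79 CPM of RAPSN, where the score took 2.20%, 1.06%, 4.74% and 2.63% of the counts. Control valve 3 was thus the highest for both genes and for the score. NR0B2 (slope 1.48 ± 0.24), KCNG2, a silent subunit of voltage-gated potassium channels (1.01 ± 0.17), ATP8A2, a phospholipid flippase (0.95 ± 0.16), LSMEM1 (0.91 ± 0.15) and HMGCLL1, an HMG-CoA lyase (0.87 ± 0.16), complete the 8 with the smallest p.

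By role, 6 of 13 muscle genes, 7 of 17 metabolic genes, 5 of 14 epithelial genes and 3 of 8 germ cell and cilium genes rose with the score. In the other groups the counts were 2 of 16 receptors and signals, 1 of 28 neural genes, 1 of 7 lymphocyte genes, 0 of 7 proliferation genes, 0 of 3 of endothelium and blood, and 4 of 63 without a group. The epithelial genes called were CFTR, DSC3, DSG1, CRNN and CAMSAP3, of which CFTR had a slope of 1.12 ± 0.23 and DSC3 of 1.18 ± 0.25. Among markers of the skeletal muscle list, 4 of 12 tested rose, ASB5 among them (0.80 ± 0.20, adjusted p = 0.0306, edgeR quasi-likelihood), while NEB did not pass (0.86 ± 0.26, adjusted p = 0.0690).

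**Figure D3:**
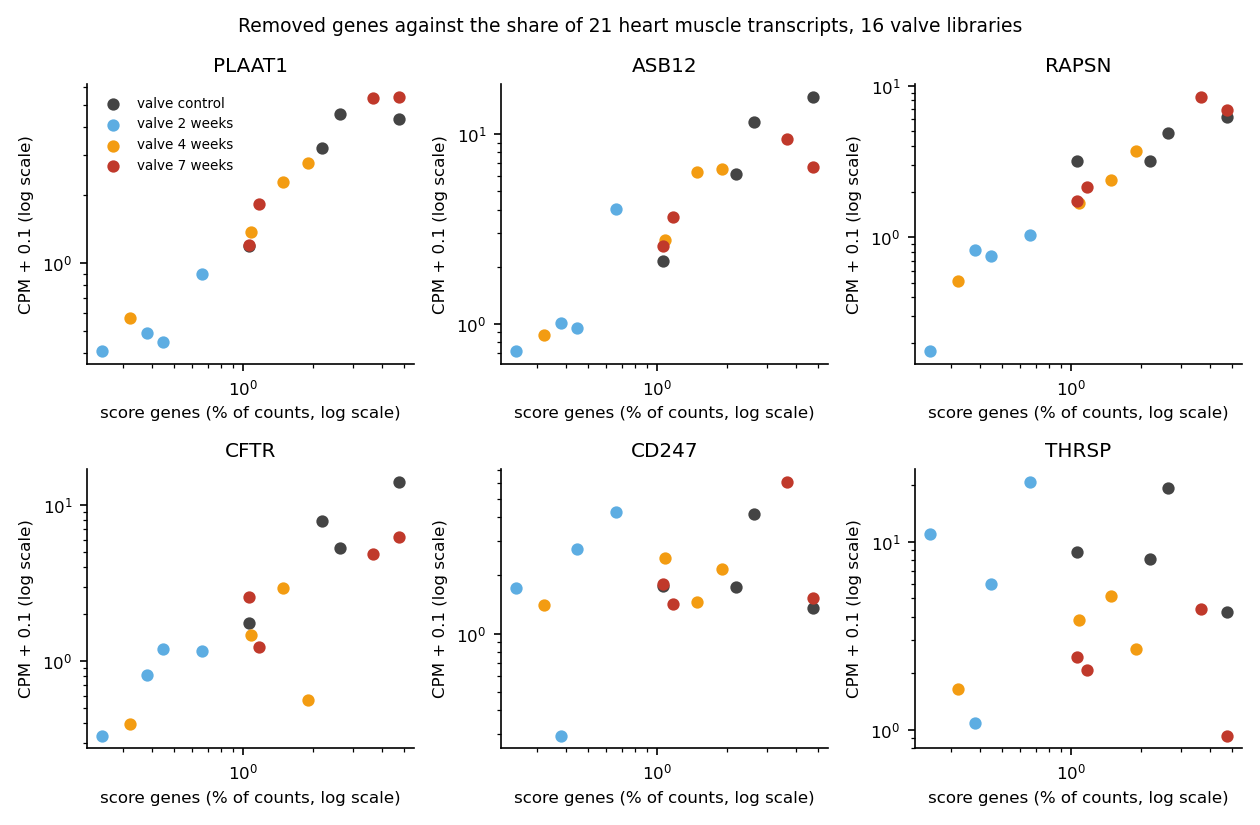
CPM + 0.1 of 6 removed genes (y axis, log scale) against the share of counts taken by the 21 score genes (x axis, log scale) in the 16 valve libraries, coloured by group. PLAAT1, ASB12, RAPSN and CFTR climb with the score across and within groups, with 1 four-week valve low for CFTR, while the points of CD247 (slope 0.48 ± 0.27) and THRSP (0.31 ± 0.31) are widely scattered and neither slope passed the test.

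The count of 29 depended on how muscle was scored. With an atrial muscle list as the score it was 2 (KCNA7 and NEB), or 1.14%, where 0.326% of all genes rose. With MYH7, the slow myosin heavy chain, alone it was also 2 (CFTR and CPN2), where 0.106% of all genes rose. At an unadjusted p under 0.05 there were 21.6% of the removed genes against 7.40% of all genes with the atrial list, and 18.75% against 5.03% with MYH7. The slope was above 0 for 69.9% and 84.7% of the removed genes in these fits. Without control valve 2, or without 4-week valve 3, the count was 19, where 3.49% and 3.46% of all genes rose.

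After 2 weeks of diet most removed genes had a lower mean level than in the controls, and none passed the test. Their summed level was 134 ± 69.4 CPM in 2-week valves against 309 ± 91.2 in control valves (SD, n = 4 each). The groups overlapped in this sum, with 2-week valve 2 at 229 CPM and control valve 2 at 195. The log2 difference was below 0 for 158 genes and above 0 for 18, or 10.2% above, against 51.96% of all genes tested, and the median was -1.08 against 0.02. No removed gene passed the test (0 of 176, where 0.0250% of all genes were called), while 69 had an unadjusted p under 0.05, or 39.2% against a background of 16.4%. DESeq2 called 35 lower, where it called 3.65% of all genes lower. Without control valve 2 edgeR called 26 lower (2.46% of all genes), without 2-week valve 2 it called 2 (0.179%), and with only these 8 libraries fitted 11 of the 96 that then passed the filter (2.23%). In 35 of the 176 genes every 2-week valve lay below every control valve, 19.9% against a background of 5.60%, and in 1 above, against 4.43%. Of the 176 genes 93 average under 1 CPM in valve, near the limit of the filter. A gene this low that passes through the controls is in part bound to be lower under diet, here and at 4 weeks. The shares over all genes do not correct for this.

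LSMEM1 was at 5.199, 3.01, 7.18 and 8.12 CPM in control valves and at 0.310, 0.597, 0.652 and 0.350 in 2-week valves. These groups did not overlap, and the log2 difference was -3.65 ± 0.69 (adjusted p = 0.0653, edgeR quasi-likelihood). ASB5 was at 4.99, 1.02, 4.89 and 4.06 CPM in controls and at 0.232, 0.332, 0.130 and 0.550 at 2 weeks, also without overlap (-3.58 ± 0.68, adjusted p = 0.0653). CFTR also did not overlap, at 7.76, 1.66, 13.99 and 5.1996 CPM in controls and 0.232, 1.06, 0.717 and 1.10 at 2 weeks (-3.24 ± 0.81, adjusted p = 0.0727).

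SMCO1 was at 3.36, 0.448, 3.41 and 2.52 CPM in controls and had no count in any 2-week valve. Against a floor of 3 counts over the 4 libraries it was at least 49.8-fold lower at 2 weeks (adjusted p = 0.0653, edgeR quasi-likelihood), and the exact 95% interval of the ratio of counts begins at 39.96. CPN2, a subunit of the plasma enzyme carboxypeptidase N, had 116 counts in controls and 2 at 2 weeks, a ratio of 66.2 with an exact 95% interval of 17.9 to 553 for counting error only. Both SMCO1 and CPN2 met the low-count filter only through the controls, where they are high, so their differences are in part built in. DPYSL5, a collapsin response mediator, was at 4.77, 3.90, 2.81 and 1.87 CPM in controls and at 0.0774, 0.199, 0.130 and 0.350 at 2 weeks, with no overlap.

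By role, with no test of the difference between roles, the median log2 difference at 2 weeks was -2.32 for the muscle genes (12 of 13 below 0), -2.47 for the epithelial genes (13 of 14) and -1.98 for the metabolic genes (15 of 17). It was -0.93 for the neural genes (25 of 28 below 0), -0.54 for the proliferation genes (6 of 7) and -0.36 for the lymphocyte genes (6 of 7). The 21 score genes had a median of -2.77 and were all below 0, with none past the test.

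With the muscle score as a covariate the median of the 176 genes at 2 weeks was -0.08 and 82 lay above 0. The number with an unadjusted p under 0.05 was then 11 in place of 69, or 6.25% against 4.60% of all genes. Among all genes this share fell as well, from 16.4%. The score did not overlap between the groups, at 0.243% to 0.659% at 2 weeks and 1.06% to 4.74% in controls. Such a fit can hardly separate score from diet, so whether the score accounts for the shift was not tested. LSMEM1 had a log2 difference of -1.32 ± 0.52 with the score in the model and CFTR of -0.22 ± 0.77, and ASB12 went from -2.60 to 0.60. DPYSL5 differed by -4.04 ± 0.80 without and -5.03 ± 1.03 with the score (adjusted p = 0.0662 and 0.657, edgeR quasi-likelihood).

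At 4 weeks the shift was smaller. The removed genes summed to 232 ± 73.7 CPM (n = 4), the median log2 difference was -0.48 against -0.03 for all genes tested, and 46 of the 176 lay above 0, or 26.1% against 45.9%. The test called 0 of 176, where 2.00% of all genes were called, and 32 had an unadjusted p under 0.05, or 18.2% against a background of 12.8%. DESeq2 called 7, or 3.98% where it called 4.32% of all genes. Of the 7, 6 were lower, where it called 0.362% of all genes lower and 3.95% higher. Without 4-week valve 4 edgeR called 3 lower, where 0.370% of all genes were called lower. Every 4-week valve lay below every control in 6 of the 176 genes, against a background of 0.626%, and above in 2, against 6.29%. With the muscle score in the model the median was 0.08.

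At that time CPN2 had a log2 difference of -3.48 ± 0.95 (adjusted p = 0.0741), DSG1, a desmosomal cadherin, of -2.78 ± 0.77 (adjusted p = 0.0806) and CFTR of -2.68 ± 0.78 (adjusted p = 0.1005), all by edgeR quasi-likelihood. DSG1 was at 1.07, 0.448, 4.89 and 1.46 CPM in controls and at 0.360, 0.0981, 0.297 and 0.468 at 4 weeks, which overlapped in 1 pair of libraries. CPN2 and DSG1 met the low-count filter only through the controls. Of the lymphocyte and of the proliferation genes 5 of 7 each lay above 0, with none past the test.

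In the proliferation group ESCO2 was at 0.926, 0.256, 0.444 and 0.731 CPM in controls and at 1.08, 2.75, 2.31 and 0.728 at 4 weeks (1.33 ± 0.50, adjusted p = 0.234, edgeR quasi-likelihood). ECT2, a regulator of cell division, was at 1.28, 0.128, 0.592 and 0.731 and at 1.75, 2.16, 3.74 and 1.51 CPM, with every 4-week valve above every control (1.55 ± 0.59, adjusted p = 0.237). Beside them, 11 of the 27 tested genes of the proliferating cell list rose at 4 weeks and 0 fell, where 1.94% of all genes rose and 0.0563% fell. E2F8 and ESCO2 are on that list and are not among the 11.

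**Figure D4:**
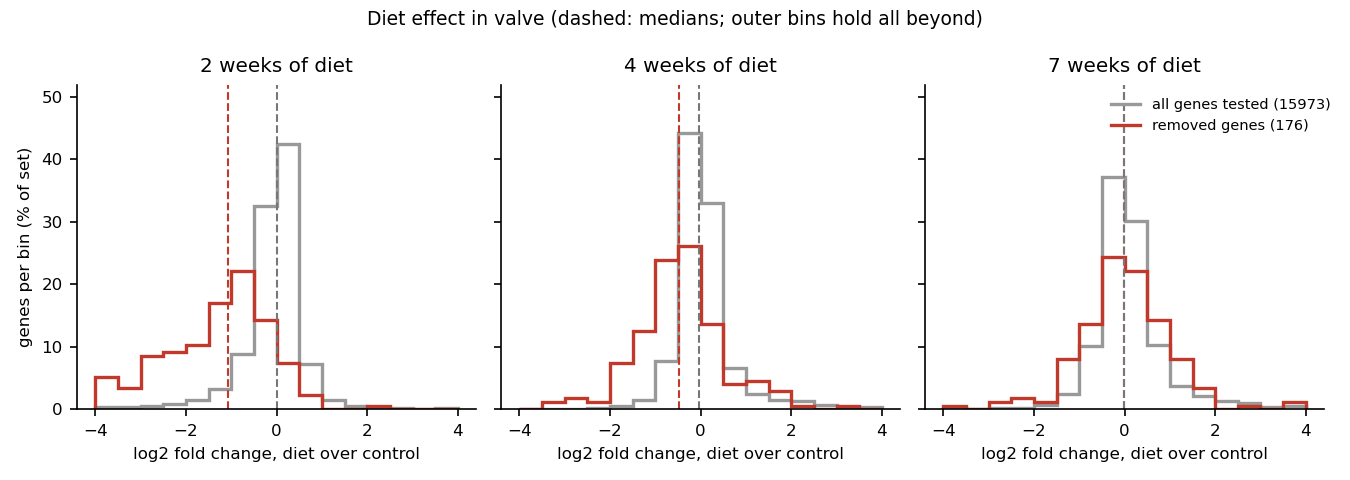
Share of genes per bin of 0.5 log2 units (y axis, % of the set) by log2 fold change of diet over control (x axis) in valve at 2, 4 and 7 weeks, for the 176 removed genes (red) and all 15973 genes tested (grey), with medians dashed. The red curve lies left of the grey at 2 weeks (median -1.08 against 0.02), less so at 4 weeks (-0.48 against -0.03), and is centred with it at 7 weeks (-0.02 against -0.01).

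At 7 weeks the removed genes were centred on 0, with 87 of the 176 above 0 and a median of -0.02. Their summed level was 334 ± 97.9 CPM (n = 4), close to the controls. The test called 4 genes, 2 higher and 2 lower, or 2.27% where 7.79% of all genes were called, 5.20% higher and 2.60% lower. At an unadjusted p under 0.05 there were 19, or 10.8% against a background of 25.8%. Every 7-week valve lay above every control in 6 genes, against a background of 8.48%, and below in 2, against 2.84%. The genes called were PRND and DDN, higher, and MS4A15 and EFNB3, lower. None of the 4 calls was left without 7-week valve 2. The call of PRND was also lost without control valve 2 or 3, that of DDN without control valve 1, 2 or 3 or 7-week valve 4, that of MS4A15 without control valve 2 or 7-week valve 3 or 4, and that of EFNB3 without control valve 3 or 7-week valve 3 or 4. The adjusted p ranged up to 0.0707, 0.0886, 0.0585 and 0.116 respectively. PRND met the low-count filter only through the 7-week valves, and MS4A15 and EFNB3 only through the controls. Each is high in that group, so these 3 differences are in part built in. With no such filter, 2 removed genes were called higher and 2 lower, where 4.14% of all genes were called.

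PRND, which encodes the prion-like protein doppel, was at 0.356, 0.192, 0.444 and 0.894 CPM in control valves and at 15.5, 30.4, 0.265 and 18.1 in 7-week valves. It was higher by 5.16 ± 1.24 log2 units (adjusted p = 0.0223, edgeR quasi-likelihood), although 7-week valve 3 lay inside the control range. PRND passed the low-count filter only through the 7-week valves, where it is high, so this difference is in part built in. At 2 weeks PRND was at 0.155, 0.133, 0 and 0.05 CPM and at 4 weeks at 0.772, 6.18, 0.178 and 0.208, so that 4-week valve 2 stood apart.

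DDN, which encodes dendrin, a protein of synapses and kidney podocytes, showed the same libraries high. It was at 0.997, 0.128, 0.222 and 2.03 CPM in controls and at 11.2, 43.9, 0.397 and 44.6 at 7 weeks (4.99 ± 1.29, adjusted p = 0.0297, edgeR quasi-likelihood). In 4-week valve 2 it was at 3.83 CPM, against 0.103 to 0.676 in the other 3.

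The 3 seven-week valves in which PRND and DDN were high came from the same animals as the 3 diet myocardium libraries. In those myocardia PRND was at 17.8, 9.60 and 89.6 CPM, against 0.143, 0.0671 and 0.353 in control myocardium, with a gap between the groups. DDN was at 37.1, 18.6 and 97.0 CPM against 3.44, 3.09 and 1.23, again with no overlap. The differences in myocardium were 7.73 ± 1.10 for PRND (adjusted p = 0.0798) and 4.41 ± 0.71 for DDN (adjusted p = 0.107, edgeR quasi-likelihood), so neither passed there. In myocardium PRND met the low-count filter only through the diet libraries. Within an animal the valve and myocardium values were 18.1 and 17.8 CPM of PRND in 7-week animal 4, 15.5 and 9.60 in animal 1, and 30.4 and 89.6 in animal 2.

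With those 3 valves left out, which leaves as a single diet library 7-week valve 3, already seen to be low for both genes, PRND differed by -0.91 log2 units and DDN by -1.18. The valve score in animals 1, 2 and 4 was 1.06%, 4.72% and 3.65%, and 1.17% in valve 3. With the score in the model PRND differed by 5.03 ± 1.16 and DDN by 4.51 ± 1.13, and both passed the test (adjusted p = 0.0162 and 0.0234, edgeR quasi-likelihood).

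MS4A15, a membrane protein of the MS4A family, was at 11.7, 6.21, 1.04 and 2.11 CPM in control valves and at 0.0652, 0, 0 and 0.121 in 7-week valves, with no overlap. The 7-week valves held 3 counts in all against 301 in controls, a ratio of 100.2 (exact 95% interval 33.95 to 488, counting error only), and the adjusted p was 0.0231 (edgeR quasi-likelihood). At 2 weeks it was at 0, 0.0664, 0.261 and 0 CPM and at 4 weeks at 0.257, 0, 0.890 and 8.42, so 4-week valve 4 lay within the control range. In myocardium a single control library had 90.1 CPM, from the animal of control valve 2, and the other 2 had 0.738 and 2.29. Diet myocardium was at 0.462, 0.141 and 0.124 CPM, below all 3 controls (adjusted p = 0.301, edgeR quasi-likelihood).

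EFNB3, the membrane-bound ligand ephrin-B3, was at 2.71, 0.832, 5.48 and 1.38 CPM in control valves and at 0.522, 0.355, 0.265 and 0.545 at 7 weeks. Every 7-week valve was below every control, by -2.65 ± 0.69 log2 units (adjusted p = 0.0317, edgeR quasi-likelihood). Without control valve 3, the highest of them, the difference was -1.94 (adjusted p = 0.116). In myocardium it was at 4.87, 10.3 and 4.58 CPM in controls and at 2.60, 5.43 and 2.37 under diet, with overlap.

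Genes that did not reach the threshold at 7 weeks included SMCO1 (-2.83 ± 0.82, adjusted p = 0.0550), DNASE1, the secreted endonuclease (-2.06 ± 0.67, adjusted p = 0.0687), and THRSP (-2.12 ± 0.70, adjusted p = 0.0725), all by edgeR quasi-likelihood. SMCO1 and DNASE1 met the low-count filter in valve only through the controls. THRSP stood at 2.35, 0.828, 1.99 and 4.30 CPM at 7 weeks, of which only the last overlapped the controls. Of the 24 tested genes of the adipocyte list, 0 rose and 1 fell at 7 weeks, with a median of -0.30, and the part of fat in the THRSP values was not tested. SELE had values of 1.21, 0.0640, 0.444 and 0.569 CPM in controls and 4.37, 0.946, 1.26 and 1.03 at 7 weeks (1.64 ± 0.76, adjusted p = 0.186).

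**Figure D5:**
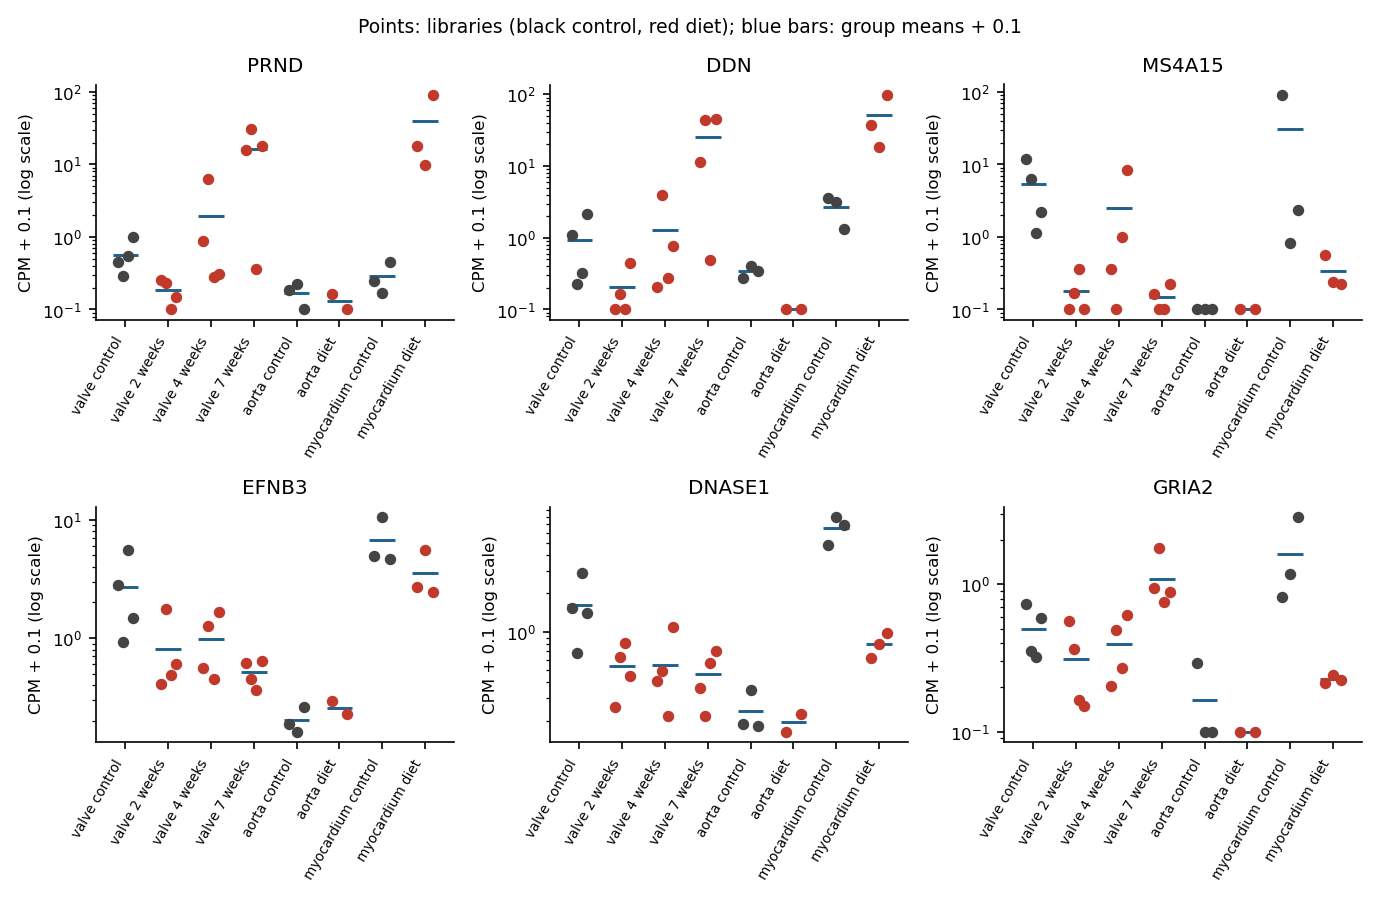
CPM + 0.1 (y axis, log scale) of PRND, DDN, MS4A15, EFNB3, DNASE1 and GRIA2 in every library, by tissue and diet group (x axis), with group means plus 0.1 as blue bars. PRND and DDN are high in 3 of 4 seven-week valves and in all 3 diet myocardia, and DNASE1 is lower in all 3 diet myocardia than in the 3 controls.

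In myocardium, the tissue to which the genes had been assigned, they summed to 885 ± 46.0 CPM in controls and 909 ± 143 under diet (SD, n = 3 each). Of the 176 genes 1 was called, lower, or 0.568% where 0.0848% of the 14151 genes tested were called and 0.0424% were called lower. At an unadjusted p under 0.05 there were 30, or 17.05% against a background of 8.85%, and DESeq2 called 7, where it called 1.91% of all genes. Every diet library lay below every control in 25 genes, 14.2% against a background of 11.4%, and above in 9, 5.11% against 3.74%.

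The gene called was DNASE1, at 4.66, 7.79 and 6.82 CPM in control and 0.520, 0.706 and 0.871 in diet myocardium. The groups were far apart, with a log2 difference of -3.07 ± 0.35 (adjusted p = 0.0295, edgeR quasi-likelihood). DNASE1 met the low-count filter there only through the controls, where it is high, so this difference is in part built in. Leaving out single libraries kept the difference between -3.24 and -2.86 but lifted the adjusted p above the threshold in the 5 fits other than that without control 1, up to 0.1303. In control valves DNASE1 was at 1.42, 0.576, 2.81 and 1.2999 CPM and at 7 weeks at 0.261, 0.118, 0.464 and 0.606, with 1 pair of libraries overlapping.

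MYO7B, a myosin of the brush border, was at 11.8, 8.79 and 6.76 CPM in control and 19.2, 58.0 and 42.2 in diet myocardium, all above the controls (2.19 ± 0.39, adjusted p = 0.107, edgeR quasi-likelihood). CRNN was at 3.37, 3.22 and 3.70 and at 7.16, 6.63 and 8.78 CPM, also without overlap (1.27 ± 0.24, adjusted p = 0.132). In the valves of the 3 diet animals MYO7B was at 5.33, 2.81 and 12.3 CPM in the same order, so the animal highest in myocardium was the lowest of the 3 in valve.

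The difference of the diet effect between 7-week valve and myocardium was tested directly in a joint fit of 16581 genes. That fit had no term for animal, although 5 animals gave both tissues. Of the 176 genes 1 passed, or 0.568% where 0.639% of all genes were called and 0.410% had a higher effect in valve. It was GRIA2, a subunit of the AMPA glutamate receptor, whose effect was higher in valve than in myocardium by 4.61 ± 0.99 log2 units (adjusted p = 0.0366, edgeR quasi-likelihood). GRIA2 was at 0.641, 0.256, 0.222 and 0.487 CPM in control valves and at 0.846, 1.66, 0.662 and 0.787 at 7 weeks. In myocardium it was at 0.717, 1.07 and 2.75 CPM in controls and at 0.115, 0.141 and 0.124 under diet. Thus every 7-week valve lay above the control valves and every diet myocardium below its controls, all at under 3 CPM. The counts were low, with 2 in each diet myocardium, and GRIA2 passed the filter through control myocardium and 7-week valve, where it is higher. Without the filter the difference was 4.57 ± 1.00 (adjusted p = 0.0493, edgeR quasi-likelihood). With animal as a block it was 4.17 ± 0.85 (adjusted p = 0.0209, limma voom), where 1.10% of all genes were called. The call was lost in 10 of the 14 fits without 1 library.

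For PRND and DDN the diet effect was not shown to differ between the tissues. The difference was -2.62 ± 1.95 for PRND (adjusted p = 0.540) and 0.56 ± 1.56 for DDN (adjusted p = 0.896), and for DNASE1 it was 0.99 ± 0.87 (adjusted p = 0.615, edgeR quasi-likelihood).

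In aorta 19 of the 176 genes passed the filter. None of the 19 was called (0 of 19, where 0.159% of all 14435 genes tested were), 6 had an unadjusted p under 0.05 against a background of 12.2%, and DESeq2 called THRSP, WDR73 and ZSCAN2 lower, 3 of the 93 it tested, where it called 2.39% of all genes. The 19 were all below 0, but a gene this low that passes because 1 group is higher is bound to differ, so the direction is given as a description only. THRSP had 106 counts in control and 3 in diet aortas, a ratio of 27.7 (exact 95% interval 9.23 to 137, counting error only), and 89 of the 106 came from control aorta 1.

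WDR73 and ZSCAN2 are the only pair of removed genes that are neighbours in the RefSeq gene table of the rabbit assembly mOryCun1.1, so reads of the pair may not be fully separable. They were low in the same animals. The animal of control valve 3 had 1.12 CPM of WDR73 and 0.386 of ZSCAN2 in valve, against 2.45 to 13.7 and 0.956 to 4.32 in the other controls, and no count of either in myocardium. The animal of 2-week valve 1 had 1.25 and 0.630 CPM in valve, the lowest of that group, and 0 and 0.280 in diet aorta 1. Diet aorta 2 had 0.0936 CPM of WDR73 and 0.201 of ZSCAN2, and the 3 control aortas 2.30 to 6.84 and 1.24 to 3.98. Both diet aortas thus lay below the controls for both genes, and neither difference passed. WDR73 had 164 counts against 1, a ratio of 129 with an exact 95% interval of 22.8 to 5112 (adjusted p = 0.0878, edgeR quasi-likelihood).

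Besides PRND and MS4A15, 4 removed genes ranged in myocardium from under 0.5 CPM to at least 10, chosen after their values were seen. CDHR1, a photoreceptor cadherin, was at 15.98, 7.52 and 2.64 CPM in control and 3.98, 0 and 0.0622 in diet myocardium. RASGRF1, a guanine nucleotide exchange factor, was at 20.7, 17.2 and 33.9 and at 8.89, 0 and 15.3. SPATA3, a testis gene, was at 0.143, 15.96 and 15.5 and at 11.99, 13.8 and 20.5, and its 1 low animal had 0 in valve as well. RUNDC3B was at 0.358, 4.10 and 2.17 and at 3.98, 1.69 and 11.4 CPM. For SPATA3 only 1 control library was low, and for RASGRF1 only 1 diet library.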

How the data were processed

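Expected counts per gene were deposited by the authors in 1 table per tissue plus a valve table without genes taken out as myocardial. Per the submitters' processing notes the tools included STAR 2.7.8a and RSEM 1.3.3, with FastQC 0.11.9 and Trim Galore 0.6.6, and for later steps edgeR 3.42.4. Which genome build was used, and how strand was treated in counting, is not given in the sources used here. Of all valve values 10.1% were not whole, and all were rounded before fitting.

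Genes were filtered with filterByExpr by group (minimum count 10, total 15) and fitted with edgeR 4.0.16 (R 4.3.3): TMM, quasi-likelihood F test, two-sided, Benjamini-Hochberg over all genes tested, threshold 0.05. The 16 valve libraries shared 1 fit, and myocardium and aorta had their own. Labels name separate replicates without saying how they were kept apart, so p-values measure the spread between these libraries. DESeq2 1.42.0, RLE scaling, no filter, single libraries left out, a replicate block, the muscle score as a covariate and other scores were alternatives. For the joint fit an animal block (limma 3.58.1, voom) was a further one. Scripts were tested on simulated counts.

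The genes, their lists and tests were chosen with earlier results of these data known, and broad roles were assigned by name after levels had been seen. Named genes were those called, on a marker list, with the 8 highest means in valve or myocardium, the 5 extreme ratios each way (pseudocount 0.1 CPM), the 5 highest in aorta, the 8 smallest slope p, and SELE, THRSP and HEMGN. Others are named as examples of a group.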

Additional observations from a re-analysis of the deposited data

Results flagged for a closer look

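Values far from the other 3 of their group were seen in 10 of 72 checks of 4 valves. The rule flags about 1 in 20 where values are independent and normally distributed. CPM of low genes that vary together need not behave so, and no excess over chance was tested. Four-week valve 2 was high for PRND (6.18 CPM, next 0.772) and DDN (3.83 CPM, next 0.676). Two-week valve 2, which had the highest muscle score of its group, was high for ASB12 (3.92 CPM), NEB (2.32 CPM) and EFNB3 (1.66 CPM). The other single high valves were control valve 3 (2.07 CPM) and 4-week valve 1 (2.73 CPM) for E2F8, a cell cycle transcription factor, 4-week valve 4 for MS4A15 (8.42 CPM) and 7-week valve 1 for SELE (4.37 CPM). Seven-week valve 2 was low for CDHR1, with 0 CPM. The diet effect of GRIA2 differed between 7-week valve and myocardium by 4.61 log2 units in the joint fit, with 2 counts in each diet myocardium, and the call was lost in 10 of 14 fits without 1 library.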

How the results depend on the processing

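RLE scaling changed no count of calls by over 1.5 times. DESeq2 called 35 removed genes at 2 weeks, 7 at 4 weeks, 10 at 7 weeks, 7 in myocardium and 3 in aorta, where edgeR called 0, 0, 4, 1 and 0. Of all genes it called 5.66%, 4.32%, 12.9%, 1.91% and 2.39%. With both directions together, the shares at 4 and 7 weeks (3.98% and 5.68% of the removed genes) were thus not above those of all genes. By direction, 6 of the 7 at 4 weeks were lower, where 0.362% of all genes were called lower. At 7 weeks 7 were lower and 3 higher, where 5.05% and 7.83% of all genes were. Fitting only the 8 libraries compared gave 11 at 2 weeks, where 2.92% of all genes were called. Without the low-count filter myocardium had 4, and with the muscle score as a covariate 2. Of all genes 0.343% and 0.297% were then called, in place of 0.0848%. The 29 slopes became 2 with the atrial list, 2 with MYH7 alone and 77 without the group term, while 0.326%, 0.106% and 10.7% of all genes rose in place of 4.98%. Leaving out single libraries gave 0 to 26 calls at 2 weeks, 0 to 3 at 4 weeks, 0 to 4 at 7 weeks, 0 to 1 in myocardium, 0 to 1 in aorta, 0 to 1 for the difference between tissues and 19 to 35 slopes. Same-numbered libraries did not deviate together (correlations of -0.396 to 0.0681), and with a replicate block, fitted for valve without control valve 4, the calls were 0 at 7 weeks in place of 4 and 1 in myocardium (PRND in place of DNASE1). Without the 3 animals shared with myocardium, chosen after seeing the data as was the score in myocardium, 1 diet library is left, the one low for PRND and DDN, so the 7-week count of 0 and the values of PRND (-0.91) and DDN (-1.18) are no test of stability. Signs also changed for ASB12 at 2 weeks with the score (0.60), and for the slopes of CFTR (-0.00603) and CPN2 (-0.29) on the atrial list and of KCNA7 (-0.00389) on MYH7. Except where stated, the cause of a change was not tested. At 1 CPM a valve library holds 8.46 to 19.999 counts, and 93 of the 176 genes average less, which limits all single-gene calls.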
